A study of Mus musculus with 9 samples.

Results

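The mast cell granule proteases are 6 genes, Cpa3, Cma1, Mcpt4, Tpsb2, Tpsab1 and Ctsg, chosen by name from the 19752 genes that the array's platform annotation gives a probe set of their own. Each was read by 1 of the 24922 probe sets, with the identifiers 10497451 for Cpa3, 10420225 for Cma1, 10420247 for Mcpt4, 10442786 for Tpsb2, 10448916 for Tpsab1 and 10420261 for Ctsg. The series measured RNA of innate lymphoid cells (ILCs), lymphocytes without antigen receptors, sorted from mouse skin on 9 one-colour Affymetrix arrays. It asked how ILCs with the skin-homing chemokine receptor CCR10 differ from those without it, both with Rag1, a recombinase without which T and B cells cannot assemble their receptors, and in its absence. All mice were female B6 animals with EGFP in place of one Ccr10 allele, so that GFP fluorescence stood for CCR10. The groups were GFP+ cells of Rag1-/- mice (2 arrays), GFP- cells of Rag1-/- mice (3 arrays), GFP+ cells of Rag1-sufficient mice, the name used here for animals whose Rag1 is intact (2 arrays), and GFP- cells of Rag1-sufficient mice (2 arrays). The sources used here give no ages. All were gated as CD45.2+, CD3- and lineage-negative, and the antibodies listed for exclusion detect B cells (B220), T cells (CD3 and CD5), myeloid cells (CD11b, Gr-1 and 7-4) and erythroid cells (a Ter antigen). No antibody to a mast cell marker is listed. Since the source animal of each replicate is not stated, p-values cover no more than the spread among these arrays, which may be a technical one.

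Mast cells of connective tissue such as skin store proteases in their secretory granules, bound to the heparin chains of the proteoglycan serglycin, and release them when IgE receptors or other triggers are engaged. The stored enzymes are of 3 kinds: a carboxypeptidase (Cpa3), chymases (Cma1 and Mcpt4) and tryptases (Tpsb2 and Tpsab1). Cathepsin G (Ctsg) is a chymase relative that neutrophils store as well. Mature ILCs are not known for these granules, whereas Cpa3, Kit and Gata2 are also read in some progenitor cells.

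The promoters of 4 of the proteases were in the RefSeq table for GRCm38.p6 and are shown because the genes varied together over the arrays. Each window holds 300 bases, from 250 before to 50 after the start of the gene, read 5′ to 3′ on the gene's strand, which is the minus strand for all 4. Cpa3 lies on chromosome 3 (chr3:20242132-20242431), and Cma1 (chr14:55944626-55944925), Mcpt4 (chr14:56062261-56062560) and Ctsg (chr14:56102525-56102824) on chromosome 14. Capitals mark a match to the GATA motif, searched on both strands as AGATAA with T also allowed as its first and G as its last letter, the letters bound by GATA1 and GATA2, transcription factors of mast cells.
Cpa3: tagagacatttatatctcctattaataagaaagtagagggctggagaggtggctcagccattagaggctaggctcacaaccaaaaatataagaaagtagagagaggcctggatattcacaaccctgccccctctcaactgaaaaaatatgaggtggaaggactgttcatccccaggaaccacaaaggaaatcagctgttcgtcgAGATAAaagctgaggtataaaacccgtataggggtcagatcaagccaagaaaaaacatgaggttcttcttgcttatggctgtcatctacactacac
Cma1: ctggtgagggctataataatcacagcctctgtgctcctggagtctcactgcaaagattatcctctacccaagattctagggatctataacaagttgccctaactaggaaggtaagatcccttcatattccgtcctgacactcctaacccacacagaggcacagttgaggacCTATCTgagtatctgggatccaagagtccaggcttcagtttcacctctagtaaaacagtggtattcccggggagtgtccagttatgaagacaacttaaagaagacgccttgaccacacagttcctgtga
Mcpt4: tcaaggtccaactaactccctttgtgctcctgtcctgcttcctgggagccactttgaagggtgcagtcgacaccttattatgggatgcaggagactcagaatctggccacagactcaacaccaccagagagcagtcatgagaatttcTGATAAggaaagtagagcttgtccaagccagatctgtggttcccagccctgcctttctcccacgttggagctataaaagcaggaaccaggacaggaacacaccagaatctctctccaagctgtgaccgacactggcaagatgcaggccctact
Ctsg: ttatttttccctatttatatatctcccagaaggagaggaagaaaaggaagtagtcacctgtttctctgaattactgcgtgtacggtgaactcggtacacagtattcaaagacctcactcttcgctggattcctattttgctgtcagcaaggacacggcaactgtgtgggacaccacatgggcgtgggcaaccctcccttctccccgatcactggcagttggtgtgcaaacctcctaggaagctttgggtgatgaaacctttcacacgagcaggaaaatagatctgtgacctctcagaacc
The GATA letters began 46 bases before the start in Cpa3, 79 in Cma1 (on the opposite strand) and 103 in Mcpt4, and they were not in the Ctsg window. Of all 32851 promoter windows in the table, 29.8% held them. The TATA box letters TATAAA, searched on the gene's strand, began 31 bases before the start in Cpa3 and 32 in Mcpt4, and 8.32% of all windows held them. The E-box CANNTG, which reads the same on both strands, was found 4 times in Ctsg, 2 times in Cpa3 and 1 time in Cma1, against 72.3% of all windows with at least 1. No match overlapped another. A match describes the letters in the window and shows neither a bound site nor a cause. Tpsb2 and Tpsab1 are named only.

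Values are deposited intensities on a linear scale, with array medians between 74.12 and 77.57. The ILC genes were present throughout: Id2, a transcription factor that all ILCs need, lay between 6727 and 7905, and the summed intensity of 8 ILC markers lay between 27521 and 30977. The labels could not be checked on their own genes, as Rag1 lay between 28.4 and 31.4 on all arrays, below the filter on dim probe sets, and Ccr10 separated the fractions little. Ccr10 had 148 and 96.5 in Rag1-/- GFP+, 103, 125 and 109 in Rag1-/- GFP-, 163 and 130 in Rag1-sufficient GFP+ and 129 and 126 in Rag1-sufficient GFP- cells, so that Rag1-/- GFP+ replicate 1 was above the GFP- arrays of its genotype and replicate 2 below them. The 2 Rag1-/- GFP+ arrays stood apart from each other. Their rank correlation over the 17445 tested probe sets was 0.9580, while other arrays of 1 group reached 0.9666 to 0.9822. Replicate 1 correlated best with a Rag1-sufficient GFP- array (0.9706) and replicate 2 with a Rag1-/- GFP- array (0.9848). Whether the label or the sort of replicate 1 differs from that of replicate 2 was not tested, so Rag1-/- GFP+ values stand for the arrays labelled so. Results that rest on these arrays are given with and without replicate 1. That choice does not mark replicate 1 as the odd array. A fit with 1 of them left out has a single array in that group, whose spread is assumed to equal that of the other groups. It also lacks the gap between the pair. In comparisons that include Rag1-/- GFP+ cells, its calls rest on which array was kept. In the other comparisons its calls rest on the loss of that gap, whichever array is left out. Exactly equal values on 2 or more arrays occurred in 12464 probe sets (50%).

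The carboxypeptidase Cpa3, a zinc enzyme that trims peptides from their C-terminal end after chymase cleavage, had the widest range over arrays, on the log2 scale, of the 6 genes. It had intensities of 2085 and 19.9 in Rag1-/- GFP+ cells and of 2686, 2146 and 2009 in Rag1-/- GFP- cells. In Rag1-sufficient mice it had 20.3 and 21.5 in GFP+ cells, against 4932 and 4965 in GFP- cells. Every GFP- array was thus high and every GFP+ array low, except Rag1-/- GFP+ replicate 1, which lay within the range of the Rag1-/- GFP- arrays. The low values are under the limit of the filter on dim probe sets (41.57), so the size of each fold against them is approximate.

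Among the chymases, Mcpt4, the main chymotrypsin-like enzyme of mouse connective tissue mast cells, followed the same split. It had 878 and 14.1 in Rag1-/- GFP+ cells and 1072, 876 and 878 in Rag1-/- GFP- cells, with 23 and 25.4 in Rag1-sufficient GFP+ cells and 2489 and 2618 in Rag1-sufficient GFP- cells. Rag1-/- GFP+ replicate 1 again lay inside the range of the GFP- arrays of its genotype. Cma1, mouse mast cell protease 5, which cleaves elastase substrates in the mouse, had 119 and 50.9 in Rag1-/- GFP+ cells and 132, 132 and 151 in Rag1-/- GFP- cells. It had 56.1 and 54 in Rag1-sufficient GFP+ cells, against 312 and 351 in Rag1-sufficient GFP- cells. Here Rag1-/- GFP+ replicate 1 lay just below the Rag1-/- GFP- arrays and well above the 3 other GFP+ arrays.

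Of the tryptases, Tpsb2, mouse mast cell protease 6, had 94 and 65.4 in Rag1-/- GFP+ cells and 128, 142 and 134 in Rag1-/- GFP- cells. It had 78.4 and 78 in Rag1-sufficient GFP+ cells, against 256 and 282 in Rag1-sufficient GFP- cells. Both Rag1-/- GFP+ arrays were below all Rag1-/- GFP- arrays, and replicate 1 was the highest of the 4 GFP+ arrays. Tpsab1, mouse mast cell protease 7, is defective in C57BL/6 mice, and RefSeq annotates it as a transcribed pseudogene. It lay between 38.2 and 44.2 on all 9 arrays, with an average of 41.5 just under the filter limit, and was not tested.

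Ctsg, just inside that limit at 50.2, had 44.3 and 41.2 in Rag1-/- GFP+ cells, 48.6, 49.7 and 50.2 in Rag1-/- GFP- cells, and 47 and 33.1 in Rag1-sufficient GFP+ cells. In Rag1-sufficient GFP- cells it had 76.3 on both arrays, above every other array. For each of the 5 genes tested the order of group means was led by Rag1-sufficient GFP-, then Rag1-/- GFP-, with no overlap between the 2 GFP- groups. The 2 GFP+ groups overlapped in all 5 genes and had no order beyond their spread. In bulk samples such as these, fewer cells of a type and less RNA per cell cannot be told apart.

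**Figure D1:**
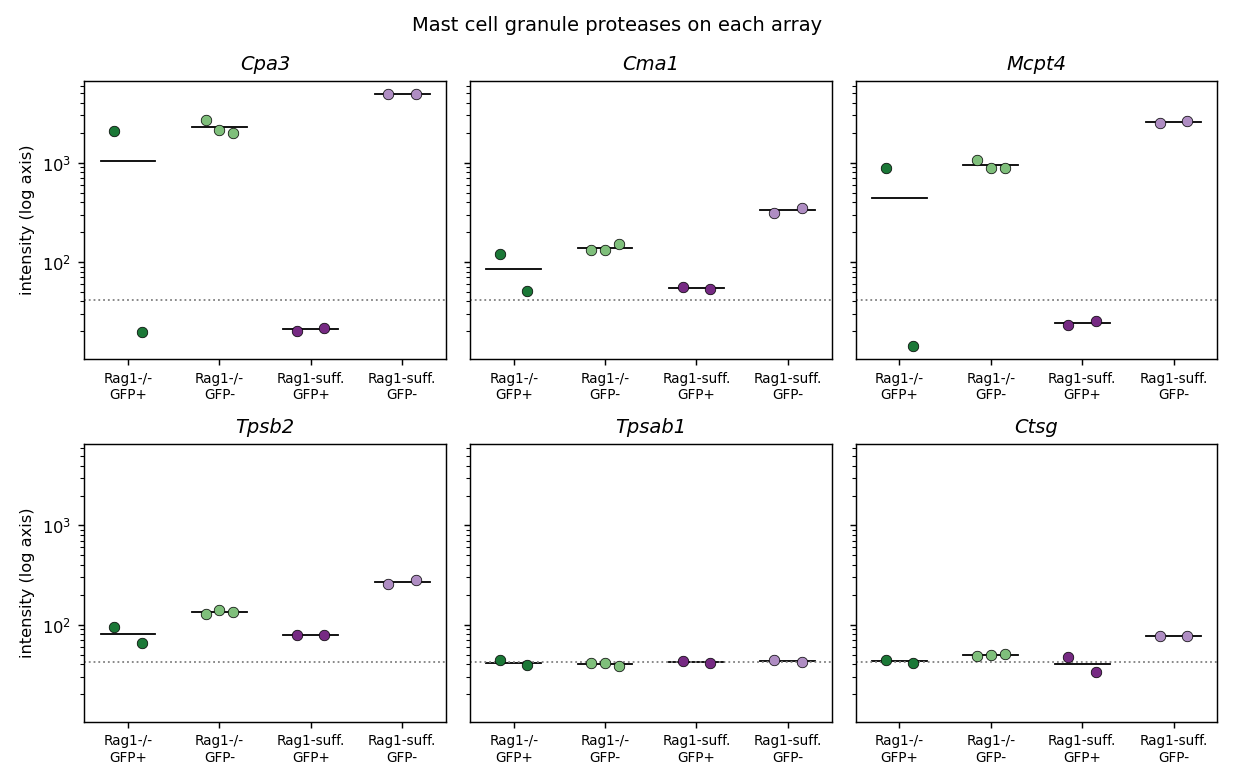
Intensity (log axis) of each protease on each array, with the groups from left to right as Rag1-/- GFP+, Rag1-/- GFP-, Rag1-sufficient GFP+ and Rag1-sufficient GFP-. Points are arrays, bars are group means and the dotted line is the filter limit (41.57). For Cpa3, 1 Rag1-/- GFP+ array (2085) sits with the GFP- arrays and the other (19.9) with the Rag1-sufficient GFP+ arrays, while Tpsab1 stays near the limit in all groups.

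The 2 Rag1-/- GFP+ arrays differed more in Cpa3 and Mcpt4 than in the other proteases. Replicate 1 minus replicate 2 was 6.64 for Cpa3, 5.86 for Mcpt4, 1.21 for Cma1, 0.52 for Tpsb2 and 0.10 for Ctsg on the log2 scale. Of the 17445 probe sets tested, 2 were more than 4 log2 units higher on replicate 1, and they were Cpa3 and Mcpt4, a step chosen after these values were seen. At more than 1 log2 unit, 29 probe sets were higher on replicate 1 and 285 were lower. Set against the mean of the Rag1-sufficient GFP- arrays, replicate 1 was lower by a similar amount in 4 genes (-1.25 for Cpa3, -1.46 for Cma1, -1.54 for Mcpt4 and -1.51 for Tpsb2) and by -0.77 for Ctsg. The 3 Rag1-/- GFP- arrays lay at -0.88 to -1.30 for Cpa3, -1.12 to -1.32 for Cma1, -1.25 to -1.54 for Mcpt4, -0.92 to -1.06 for Tpsb2 and -0.59 to -0.64 for Ctsg. Replicate 1 was thus within or below the Rag1-/- GFP- range for each gene, whereas replicate 2 was at -7.88 for Cpa3 and -7.40 for Mcpt4.

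The comparison of GFP+ with GFP- cells in Rag1-sufficient mice gave lower values in GFP+ cells for all 5 proteases tested. Differences are on the log2(intensity + 1) scale as estimate ± SE from limma across all 9 arrays, and adjusted p-values are Benjamini-Hochberg values over all 17445 probe sets. Cma1 averaged 55.1 ± 1.51 in GFP+ and 331 ± 27.2 in GFP- cells (SD, n = 2 each) and fell by 2.56 ± 0.31 (adjusted p = 0.0112). Tpsb2 averaged 78.2 ± 0.318 in GFP+ and 269 ± 18.3 in GFP- cells and fell by 1.77 ± 0.16 (adjusted p = 0.00843). Ctsg averaged 40 ± 9.84 in GFP+ and 76.3 ± 0.0156 in GFP- cells and fell by 0.93 ± 0.14 (adjusted p = 0.0242). These 3 of 5 passed the threshold of 0.05, where 0.47% of all probe sets passed it in the lower direction.

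Cpa3 and Mcpt4 had the lowest differences of all 17445 probe sets and did not pass. The Cpa3 difference was -7.82 ± 1.61 (adjusted p = 0.0812), with means of 20.9 ± 0.802 in GFP+ and 4949 ± 23.7 in GFP- cells, a ratio of 226 on this scale. For Mcpt4 it was -6.66 ± 1.42 (adjusted p = 0.0915), with 24.2 ± 1.64 in GFP+ and 2554 ± 90.8 in GFP- cells. The model shares 1 estimate of the spread over all groups, and the SE of both genes takes in the gap between both Rag1-/- GFP+ replicates. In the fit without replicate 1 of these, all 5 proteases were called lower, against 0.699% of probe sets, with an SE of 0.17 for Cpa3 and 0.15 for Mcpt4 (adjusted p = 6.78e-06 each). Both SEs were the same when replicate 2 was left out instead. In all 5 genes both GFP+ arrays lay below both GFP- arrays, as in 21.2% of all probe sets. The median difference over the 5 genes was -2.56, and over all probe sets 0.01. Leaving out 1 Rag1-sufficient array hardly moved the differences of Cma1 (-2.65 to -2.48) and Tpsb2 (-1.84 to -1.70), and that of Ctsg ran from -1.18 to -0.69. Fewer were called in these fits, where the lone array was assumed to vary like the other groups: 1 without GFP+ replicate 1 (Ctsg, adjusted p = 0.0319), and 0 without GFP+ replicate 2, GFP- replicate 1 or GFP- replicate 2. Over all probe sets these 4 fits called 3 to 6 in either direction.

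**Figure D2:**
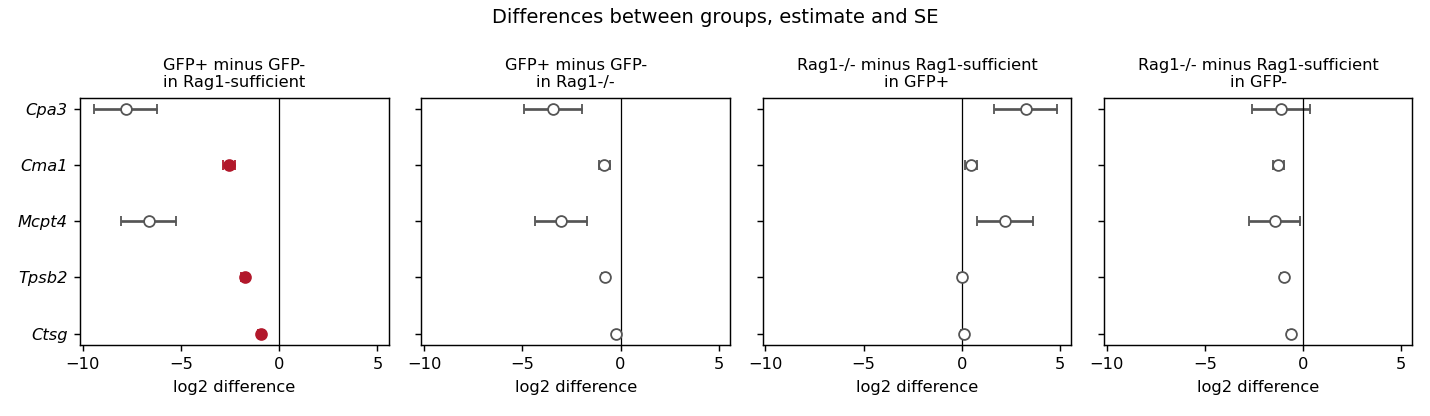
Log2 differences (estimate and SE) of the 5 tested proteases in the 4 comparisons, 1 panel each. Filled red points have an adjusted p under 0.05. The wide bars of Cpa3 and Mcpt4 (SE 1.61 and 1.42 in the first panel) stand beside narrow ones for Tpsb2 (0.16) and Ctsg (0.14).

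In Rag1-/- mice the same comparison of GFP+ with GFP- cells gave no call, either among the proteases or among all probe sets (0%), with limma's smallest adjusted p at 0.688. At an unadjusted p under 0.05 there were 4 of the 5 proteases and 1098 of all probe sets. The differences were -3.44 ± 1.47 for Cpa3, -3.03 ± 1.30 for Mcpt4, -0.82 ± 0.29 for Cma1, -0.77 ± 0.15 for Tpsb2 and -0.21 ± 0.13 for Ctsg. Both GFP+ arrays lay below all GFP- arrays in Cma1, Tpsb2 and Ctsg (3 of 5, against 10.1% of all probe sets), while Cpa3 and Mcpt4 overlapped. The result turned on which GFP+ array was used. With replicate 2 as the lone GFP+ array and its spread taken from the other groups, Cpa3 fell by 6.76 ± 0.19 and Mcpt4 fell by 5.96 ± 0.17 (adjusted p = 4.01e-05 each), and Cma1 fell by 1.42 ± 0.13 (adjusted p = 0.0378), where 0.0287% of probe sets were called lower. In that fit Tpsb2 was at -1.03 ± 0.11 (adjusted p = 0.0646) and Ctsg at -0.26 ± 0.17 (adjusted p = 0.999). With replicate 1 as the lone GFP+ array the differences were -0.12 for Cpa3, -0.10 for Mcpt4, -0.21 for Cma1, -0.51 for Tpsb2 and -0.16 for Ctsg.

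The loss of Rag1 was compared within each fraction. In GFP- cells all 5 proteases were lower in Rag1-/- than in Rag1-sufficient mice on every array, as in 17.6% of all probe sets, and none passed the threshold in limma, where 0.0917% of probe sets were called lower. At an unadjusted p under 0.05 there were 3 of the 5 proteases and 3014 of all probe sets. Cpa3 averaged 2280 ± 358 in Rag1-/- (n = 3) and 4949 ± 23.7 in Rag1-sufficient mice (n = 2), a difference of -1.13 ± 1.47 (adjusted p = 0.712). Mcpt4 averaged 942 ± 113 in Rag1-/- and 2554 ± 90.8 in Rag1-sufficient mice, -1.44 ± 1.30 (adjusted p = 0.581). Cma1 averaged 138 ± 11.3 in Rag1-/- and 331 ± 27.2 in Rag1-sufficient mice, -1.25 ± 0.29 (adjusted p = 0.134). Tpsb2 averaged 135 ± 6.8 in Rag1-/- and 269 ± 18.3 in Rag1-sufficient mice, -0.99 ± 0.15 (adjusted p = 0.052). Ctsg averaged 49.5 ± 0.799 in Rag1-/- and 76.3 ± 0.0156 in Rag1-sufficient mice, -0.61 ± 0.13 (adjusted p = 0.11). The gaps in all 5 genes are wide beside the SDs of the GFP- groups themselves, but these SDs come from 2 or 3 arrays each.

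Rag1-/- GFP+ replicate 1 is in neither GFP- group but enters the shared estimate of the spread, and in the fit without it 4 of the 5 were called lower in Rag1-/- GFP- cells, where 0.264% of probe sets were. The estimates stayed as above, and the adjusted p became 0.0385 for Cpa3, 0.0141 for Cma1 and 0.015 for both Mcpt4 and Tpsb2, with Ctsg at 0.0986. With only the GFP- arrays of both genotypes in the fit, limma called none of the 5. Adjusted p was then 0.0752 for Cpa3 and 0.0568 for Cma1, and 8 of all probe sets were called in either direction. In the larger fit the SE of Cpa3 was 0.15 whichever Rag1-/- GFP+ array was left out. The differences of the 5 genes ran from -0.61 to -1.44, with a median of -1.13 against 0.00 over all probe sets. Tpsab1, under the filter, had 41, 41 and 38.2 in Rag1-/- and 44.2 and 42.1 in Rag1-sufficient GFP- cells.

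In GFP+ cells no protease was called between Rag1-/- and Rag1-sufficient mice by limma, at an unadjusted p under 0.05 there were 0 of 5 and 1190 of all probe sets, and all 5 overlapped between the groups. Of all probe sets 0.246% were called in either direction, and 11% did not overlap with higher and 18.5% with lower values in Rag1-/- cells. The differences were 3.25 ± 1.61 for Cpa3, 2.20 ± 1.42 for Mcpt4, 0.49 ± 0.31 for Cma1, 0.00 ± 0.16 for Tpsb2 and 0.11 ± 0.14 for Ctsg, with adjusted p-values from 0.756 to 1. When replicate 1 of the Rag1-/- GFP+ arrays was left out they turned to -0.06 ± 0.21 for Cpa3, -0.73 ± 0.18 for Mcpt4, -0.11 ± 0.14 for Cma1 and -0.25 ± 0.12 for Tpsb2, none of them called, where 0.0516% of probe sets were. When replicate 2 was left out instead, so that the group was replicate 1 alone with a spread taken from the other groups, Cpa3 was at 6.57, Mcpt4 at 5.13 and Cma1 at 1.10, and these 3 were called higher, where 0.138% of probe sets were.

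Whether the difference between fractions itself depended on Rag1 was tested as an interaction, the GFP+ minus GFP- difference in Rag1-/- minus that in Rag1-sufficient mice. It was above 0 for all 5 proteases and called for none by limma, as for 0% of all probe sets. The values were 4.38 ± 2.18 for Cpa3 (adjusted p = 0.409), 3.64 ± 1.93 for Mcpt4 (0.431), 1.75 ± 0.42 for Cma1 (0.237), 1.0 ± 0.22 for Tpsb2 (0.209) and 0.73 ± 0.19 for Ctsg (0.251). At an unadjusted p under 0.05 there were 3 of the 5 proteases and 2378 of all probe sets. The interaction was 1.06 for Cpa3 and 0.71 for Mcpt4 and called for none when Rag1-/- GFP+ replicate 1 was left out, and it was called for 4 of the 5 when replicate 2 was left out, where 0.527% of probe sets were called above 0. The fit without replicate 2 also rests on 1 Rag1-/- GFP+ array, and it called 500 probe sets in either direction, against 0 with all arrays.

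Most of these proteases sit beside relatives with other cell specificities. In RefSeq's gene order on chromosome 14 the chymase cluster runs over 17 genes from Cma1 to Gzmb, with Mcpt4 and Ctsg between them, and 5 passed the filter, 8 were under it and 4 had no probe set. The mucosal mast cell chymases Mcpt1 and Mcpt2 lay at 13.4 to 14.3 and 14.3 to 17.4 on all arrays, and the basophil protease Mcpt8, next to Mcpt4, at 16.3 to 21.8. All of these were under the filter. Both Rag1-sufficient GFP- arrays were the highest, by small steps, for Mcpt1 (14.2 and 14.3) and Mcpt2 (17.1 and 17.4). No group stood out in Mcpt8. Gzmb, the main granzyme of cytotoxic lymphocytes, lay between 48.8 and 98.9 and was not called in any comparison.

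Gzmc, a granzyme of cytotoxic lymphocytes at the far end of the cluster, followed the genotype and not the protease pattern. It had 560 and 872 in Rag1-/- GFP+ cells, 870, 677 and 1173 in Rag1-/- GFP- cells, 45.2 and 31.3 in Rag1-sufficient GFP+ cells, and 86.6 and 88.6 in Rag1-sufficient GFP- cells. All 5 Rag1-/- arrays were above all 4 Rag1-sufficient arrays. Gzmc rose in Rag1-/- cells by 4.18 ± 0.30 in the GFP+ fraction (adjusted p = 0.00312) and by 3.32 ± 0.27 in the GFP- fraction (adjusted p = 0.00972), while Cma1, Mcpt4 and Ctsg were at -1.25, -1.44 and -0.61 in the GFP- fraction. Between the fractions of Rag1-sufficient mice Gzmc was at -1.20 ± 0.30 (adjusted p = 0.138).

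In the tryptase cluster on chromosome 17, Tpsg1, a membrane-anchored tryptase next to Tpsb2, had 93.5 and 78.8 in Rag1-/- GFP+ cells and 97.8, 97.8 and 103 in Rag1-/- GFP- cells. It had 53.7 and 89.4 in Rag1-sufficient GFP+ cells, against 141 and 143 in Rag1-sufficient GFP- cells. Its difference between the Rag1-sufficient fractions was -1.03 ± 0.20 (adjusted p = 0.0688). Prss34, a protease of basophils and mast cells, lay between 32.3 and 40.9 on all arrays, under the filter. Beside Cpa3 on chromosome 3, the pancreatic carboxypeptidase Cpb1 lay between 31.5 and 36.3, and Gyg, which primes glycogen synthesis, was not called between the Rag1-sufficient fractions (0.83, adjusted p = 0.254).

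**Figure D3:**
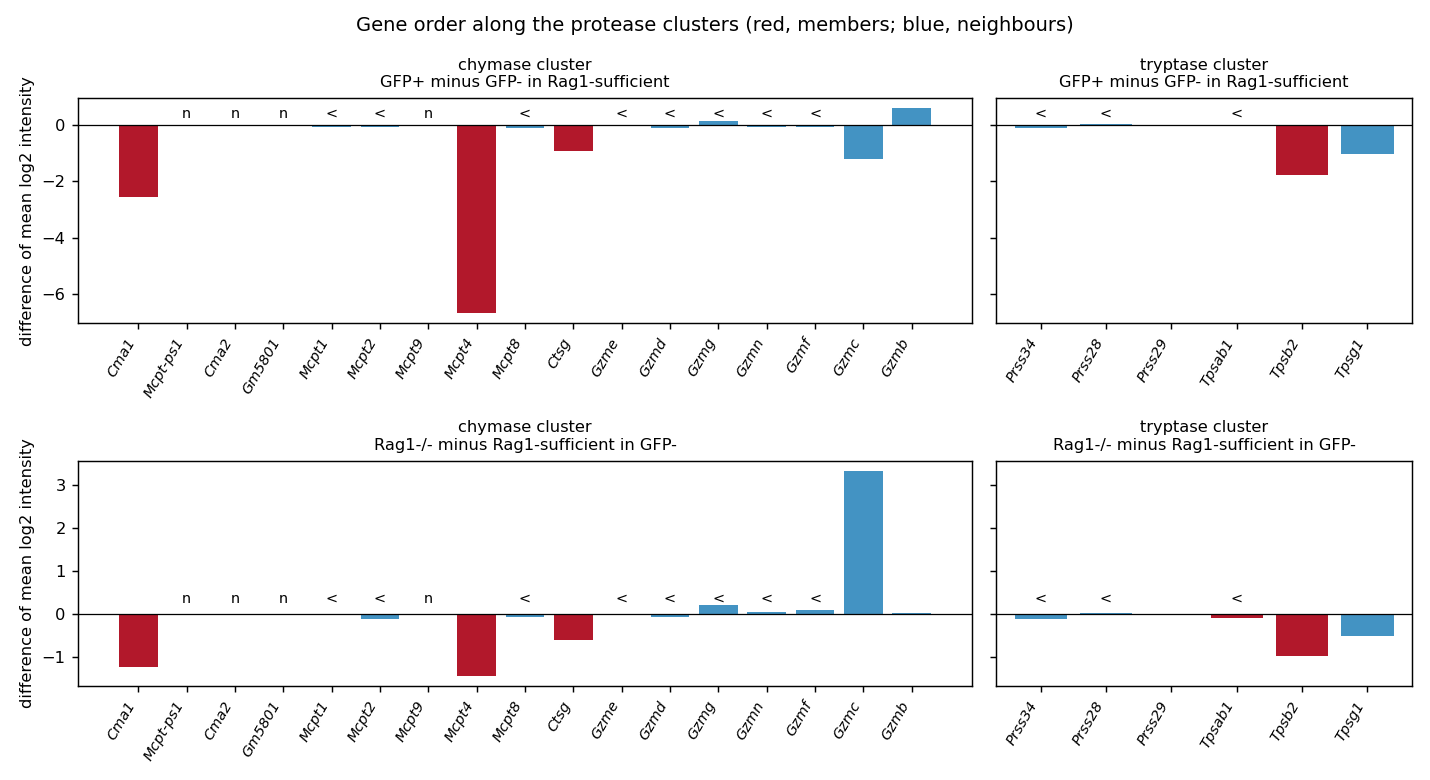
Difference of mean log2 intensity for the genes of the chymase cluster (left) and the tryptase cluster (right) in RefSeq order, for GFP+ minus GFP- in Rag1-sufficient mice (top) and Rag1-/- minus Rag1-sufficient in GFP- cells (bottom). Red bars are the proteases of the report and blue bars their neighbours, with < for genes under the filter and n for genes without a probe set. Mcpt4 (-6.66) lies between neighbours near 0 in the top row, and Gzmc (3.32) is opposite in sign to Cma1, Mcpt4 and Ctsg in the bottom row.

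The receptors, enzymes and transcription factors that mark mast cells were also lower in GFP+ cells of Rag1-sufficient mice. Of 12 tested (16 listed), 7 were called lower than in GFP- cells, where 0.47% of all probe sets were, and none higher. The median was -1.42, against 0.01 over all probe sets. Mrgprb1, a mast cell receptor of the Mas-related family, fell by 3.46 ± 0.39 (adjusted p = 0.0101), and Cyp11a1, the first enzyme of steroid synthesis, fell by 2.30 ± 0.28 (adjusted p = 0.0109). Ms4a2, the beta chain of the IgE receptor, fell by 1.83 ± 0.27 (adjusted p = 0.0221). The serotonin transporter Slc6a4 was at -1.82 ± 0.24, Gata2 at -1.46 ± 0.20, Kit, the stem cell factor receptor, at -1.38 ± 0.22 and Mrgprb13 at -0.77 ± 0.13 (adjusted p from 0.015 to 0.0447). Tph1, the serotonin-synthesis enzyme, was not called with all arrays (adjusted p = 0.0727 by limma). In the fit without Rag1-/- GFP+ replicate 1 it was at -2.05 ± 0.19. The summed intensity of the 16 genes was 2450 and 1751 in Rag1-/- GFP+ cells, 2283 to 2992 in Rag1-/- GFP- cells, 1240 and 1384 in Rag1-sufficient GFP+ cells and 3328 and 3445 in Rag1-sufficient GFP- cells. Kit was the brightest of the 16 on every array and weighs on these sums. It gave 974 of the 1751 on Rag1-/- GFP+ replicate 2, against 482 of 1240 and 583 of 1384 in Rag1-sufficient GFP+ cells. The part of mast cell numbers in the protease differences was not tested.

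In the other comparisons none of the 12 was called with all arrays in the fit. Their medians were -0.36 for GFP+ minus GFP- in Rag1-/- mice, 0.24 for genotype in GFP+ and -0.51 for genotype in GFP- cells. Without Rag1-/- GFP+ replicate 1, Tph1 was at -2.31 for GFP+ minus GFP- in Rag1-/- mice. For genotype in GFP- cells 11 of the 12 were below 0, as were all 5 proteases tested. The lowest of the 12 were Mrgprb1 (-1.71), Slc6a4 (-1.31), Cyp11a1 (-1.30) and Ms4a2 (-1.12). These 4 estimates were the same without Rag1-/- GFP+ replicate 1, with SEs of 0.21, 0.10, 0.13 and 0.15. Kit and Tph1 did not share the order of the proteases in the GFP- groups. Kit had 1600, 1102 and 1201 in Rag1-/- GFP- cells and 1386 and 1378 in Rag1-sufficient GFP- cells, a difference of -0.11 ± 0.20 (adjusted p = 0.807). Tph1 had 358, 265 and 388 in Rag1-/- GFP- cells, above the 178 on both Rag1-sufficient GFP- arrays, a difference of 0.90 ± 0.38 (adjusted p = 0.271). On Rag1-/- GFP+ replicate 2, where Cpa3 was at 19.9, Kit stood at 974, above both Rag1-sufficient GFP+ arrays (482 and 583).

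Of 19 genes tested for storing and maturing the proteases, 2 were called lower in GFP+ cells of Rag1-sufficient mice, where 0.47% of all probe sets were. The median was -0.03. Hdc, which makes histamine, fell by 2.05 ± 0.29 (adjusted p = 0.0187), and Rab27b, a GTPase of granule release, fell by 0.84 ± 0.14 (adjusted p = 0.0403). Ndst2, the sulphotransferase needed for mast cell heparin, was at -1.01 ± 0.20 (adjusted p = 0.0687). Srgn, the proteoglycan core that holds the proteases, lay between 9561 and 10868 on all arrays (0.07 ± 0.06, adjusted p = 0.752), and Ctsc, the peptidase that activates chymases, was at 0.25 ± 0.29 (adjusted p = 0.828). Of 7 protease inhibitors 1 was called lower in that comparison, against the same 0.47%. It was Serpinb1a, which inhibits cathepsin G and other granule serine proteases. Serpinb1a had 389 and 260 in Rag1-/- GFP+ cells, 440, 446 and 597 in Rag1-/- GFP- cells, 226 and 222 in Rag1-sufficient GFP+ cells and 662 and 654 in Rag1-sufficient GFP- cells. It fell by 1.55 ± 0.23 in Rag1-sufficient GFP+ cells (adjusted p = 0.022). None of 6 tested genes for substrates of these proteases was called in any comparison.

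**Figure D4:**
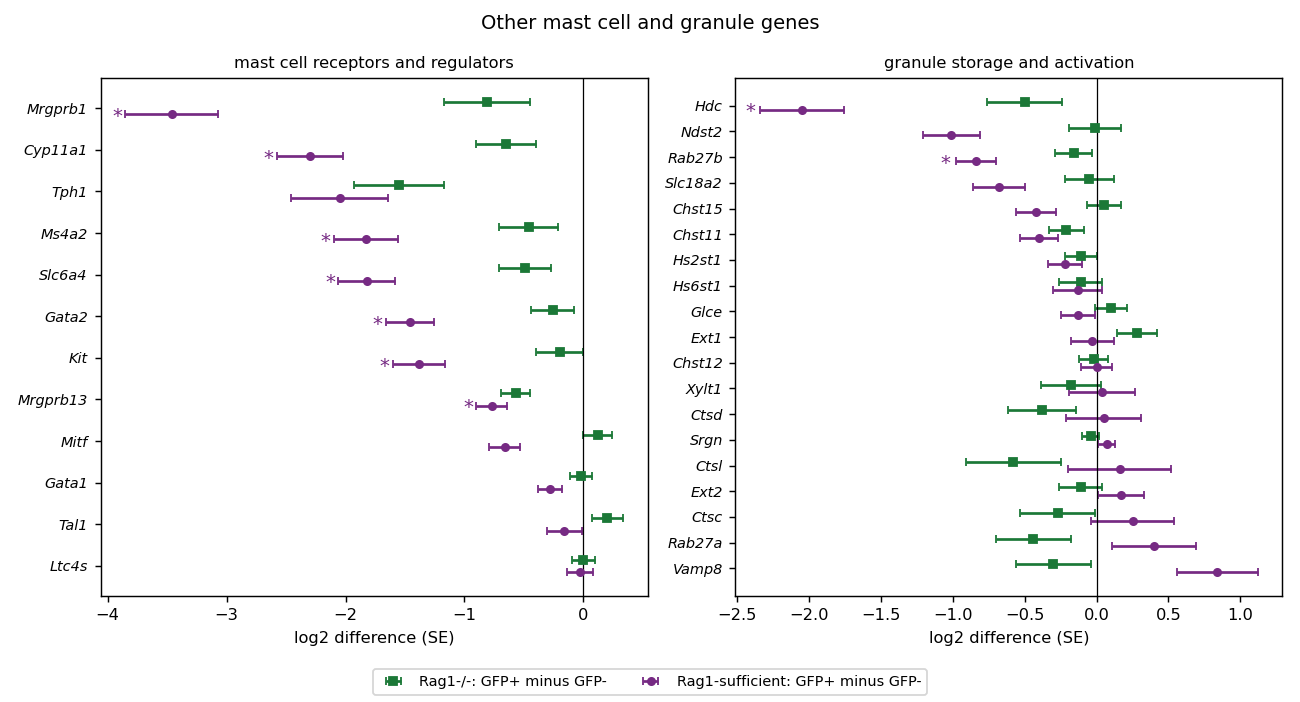
Log2 differences (estimate and SE) between GFP+ and GFP- cells for mast cell receptors and regulators (left) and for genes of granule storage and activation (right). Green squares are Rag1-/- mice, purple circles Rag1-sufficient mice, and asterisks mark an adjusted p under 0.05. Mrgprb1 (-3.46) and Hdc (-2.05) lie farthest to the left in their panels, and Srgn (0.07) lies near 0.

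Markers of other cells that store such proteases, or that skin preparations can carry, were not called between the Rag1-sufficient fractions, with the exception of Ms4a2. Ctsg's other source, the neutrophil, was checked with 11 markers, of which 3 were tested and the others were under the filter. The sum of the 11 was 502 and 390 in Rag1-/- GFP+, 384 to 398 in Rag1-/- GFP-, 413 and 401 in Rag1-sufficient GFP+ and 418 and 420 in Rag1-sufficient GFP- cells. The highest of these sums was on Rag1-/- GFP+ replicate 1, the array of that pair with the higher proteases, with Mpo, the myeloperoxidase gene, at 88.9 and Ngp, a granule protein gene, at 55.9. The neutrophil elastase gene Elane was under the filter, at 32.1 to 45.7 on all arrays. Among 6 basophil markers, Mcpt8, Prss34, Cd200r3 and Fcer1a were under the filter. The 1 called lower, Ms4a2, is shared with mast cells, as is Fcer1a. The 6 basophil markers summed to 400 and 334 in Rag1-/- GFP+ and 372 to 394 in Rag1-/- GFP- cells. In Rag1-sufficient mice they summed to 355 and 336 in GFP+ and 462 and 493 in GFP- cells. None of 5 macrophage, 6 fibroblast or 7 keratinocyte markers tested was called in any comparison. The 8 macrophage markers summed to 424 and 400 in Rag1-/- GFP+, 385 to 429 in Rag1-/- GFP-, 429 and 424 in Rag1-sufficient GFP+ and 490 and 561 in Rag1-sufficient GFP- cells, highest in the group where the proteases were highest. The list was split between the Rag1-sufficient fractions. Lyz2, Cd68 and, under the filter, Mrc1 and Adgre1 were higher in GFP- cells (Lyz2 97.2 and 156, against 80.6 and 67.3). C1qa and C1qb were lower there (C1qb 37.6 and 46, against 68.5 and 58.8), and Csf1r and Cd163 overlapped. The keratinocyte markers had a median of -0.63 between the Rag1-sufficient fractions and summed to 1389 and 1620 in Rag1-/- GFP+, 1511 to 2263 in Rag1-/- GFP-, 2295 and 1811 in Rag1-sufficient GFP+ and 2287 and 3396 in Rag1-sufficient GFP- cells. Among the 6 T cell markers, Cd3g and Cd3e were the brightest on every array. Cd4 lay between 59.5 and 131 and Cd8a between 51.7 and 67.5 on all arrays. The 6 T cell markers summed to 2975 and 5967 in Rag1-/- GFP+ and 3965 to 6248 in Rag1-/- GFP- cells, against 2311 and 1859 in Rag1-sufficient GFP+ and 1465 and 1472 in Rag1-sufficient GFP- cells. Of these, Cd3e, a chain of the T cell receptor complex, was called higher in Rag1-/- than in Rag1-sufficient GFP+ cells (2.68 ± 0.39, adjusted p = 0.0419), and by 3.36 (adjusted p = 0.0164) without Rag1-/- GFP+ replicate 1. In that fit Cd3e (1.78, adjusted p = 0.0244) and Cd3g (1.87, adjusted p = 0.0439) were also called higher in Rag1-/- GFP- cells, where 4 proteases were called lower. The part of any of these markers in the protease differences was not tested.

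Across the 9 arrays the proteases varied together, which is given as a description since the arrays share 4 groups. Pearson's r of log2 intensity was 0.996 between Cpa3 and Mcpt4, 0.974 between Cma1 and Tpsb2, and 0.709 between Cpa3 and Ctsg, the lowest of the 10 pairs. The 8 other genes most like the mean standardised profile of the 5 tested proteases were Mc5r (r = 0.982), a melanocortin receptor, Pilra (0.981) and Pilrb2 (0.965), paired immunoglobulin-like receptors, Cyp11a1 (0.977), Mrgprb1 (0.975), the small nucleolar RNA Snora74a (0.967), Jun (0.964), a subunit of the transcription factor AP-1, and Rgs16 (0.963), a regulator of G-protein signalling. Mc5r had 225 and 97 in Rag1-/- GFP+ cells, 366, 258 and 301 in Rag1-/- GFP- cells, 116 and 122 in Rag1-sufficient GFP+ cells and 583 and 545 in Rag1-sufficient GFP- cells. The 5 genes most like Cpa3 alone were Rgs16 (0.964), Cd81 (0.959), a tetraspanin, Snora75 (0.956), Snora74a (0.949) and Dmxl2 (0.945). Cd81 had 1621 and 967 in Rag1-/- GFP+ cells, 2174, 1968 and 2245 in Rag1-/- GFP- cells, 673 and 752 in Rag1-sufficient GFP+ cells and 2057 and 2049 in Rag1-sufficient GFP- cells, with no gap between the genotypes in the GFP- fraction.

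**Figure D5:**
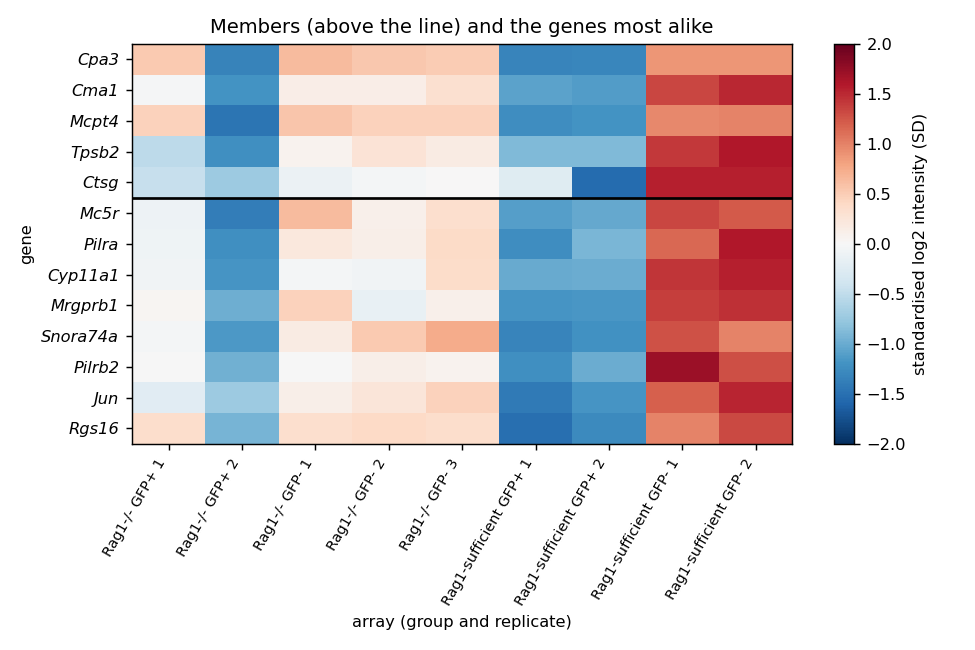
Standardised log2 intensity (SD units, colour) of the 5 tested proteases (above the line) and of the 8 genes most like their mean profile (below), with arrays as columns from Rag1-/- GFP+ to Rag1-sufficient GFP-. The 2 Rag1-sufficient GFP- columns are red and the 2 Rag1-sufficient GFP+ columns blue in every row. Rag1-/- GFP+ replicate 2 is blue in every row, while replicate 1 is close to the Rag1-/- GFP- columns in most rows. In Tpsb2 and Ctsg replicate 1 is nearer to other GFP+ columns.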

How the data were processed

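The authors deposited 1 linear intensity per probe set and array, without detection calls or scanner files. Per the labels' protocols, biotinylated single-stranded DNA was prepared by the Affymetrix method. The submitters' processing notes name MAS5. What that tool did, how arrays were normalized and which genome build was used is not given in the sources used here. Deposited intensities were taken as log2(value + 1), so fold changes of dim genes are understated. Probe sets were ranked by mean log2 value, the lowest 30% were dropped, and 17445 remained. All 9 arrays entered 1 model with a mean per group, fitted with limma 3.58.1 in R 4.3.3 by lmFit and by eBayes with trend (residual degrees of freedom 5, prior 3.56). Tests were two-sided, with Benjamini-Hochberg adjustment over all probe sets and a threshold of 0.05. The procedure was tested on simulated data.

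A gene with several probe sets was represented by the brightest. Of all probe sets, 21425 had 1 gene symbol, 1399 several and 2098 none. The proteases and 13 other gene lists were chosen with earlier results of these data known. The genes named are the proteases, list genes called in at least 1 comparison or needed for a count, cluster neighbours, the 8 genes most like the mean profile and the 5 most like Cpa3. The few arrays limit the precision of every value. Alternatives were another pseudocount, no filter, quantile normalization, array weights, a replicate block, only the arrays compared, and leaving out each array.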

Additional observations from a re-analysis of the deposited data

How the results depend on the processing

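Of the single-gene differences under all alternatives, 318 kept their direction and side of the threshold, 33 newly passed it, 14 no longer passed and 5 reversed, all 5 in the comparison of Rag1-/- with Rag1-sufficient GFP+ cells. Without Rag1-/- GFP+ replicate 1, Cpa3 turned to -0.06, Cma1 to -0.11, Mcpt4 to -0.73 and Tpsb2 to -0.25, and Ctsg turned to -0.14 without Rag1-sufficient GFP+ replicate 2. Over all arrays left out singly, that comparison ran from -0.06 to 6.57 for Cpa3, -0.11 to 1.10 for Cma1, -0.73 to 5.13 for Mcpt4, -0.25 to 0.26 for Tpsb2 and -0.14 to 0.36 for Ctsg. Leaving out 1 array at a time, the proteases called numbered 0 to 5 between the Rag1-sufficient fractions (3 with all arrays), 0 to 3 between the Rag1-/- fractions, 0 to 3 for genotype in GFP+ cells, 0 to 4 for genotype in GFP- cells and 0 to 4 for the interaction (0 with all arrays in each of these 4). Array weights gave 5 in the first comparison and 3 for genotype in GFP- cells, where a pseudocount of 16 and quantile normalization gave 1 each. With only the arrays compared, 4 were called in the first comparison and 0 for genotype in GFP- cells. Over all probe sets, array weights moved the calls from 140 to 1290 in the first comparison and from 25 to 1168 for genotype in GFP- cells, and leaving out 1 Rag1-sufficient array left 3 to 6 in the first. The cause was not tested. Results of the gene lists without Rag1-/- GFP+ replicate 1 were an alternative added after seeing the data.

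Whether same-numbered arrays share an animal is not stated. Deviations of same-numbered GFP+ and GFP- arrays correlated at 0.082 in Rag1-sufficient mice and at 0.031 and -0.244 in Rag1-/- mice. In a group of 2 arrays the deviations mirror each other, so these values cannot decide whether samples were paired. With the replicate number as a block, 2 proteases were called in the first comparison and 0 in the others, and 73 probe sets against 140 in all. Each protease had 1 probe set, so trying each set in turn changed nothing.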
